A study of Rattus norvegicus with 30 samples.

Results

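The lysophospholipid acyltransferases around Lpcat1 were a set of 10 genes, chosen by symbol from the 32883 genes of the expression table: Lpcat1, Lpcat2, Lpcat3, Lpcat4, Mboat1, Mboat2, Mboat7, Lclat1, Lpgat1 and Gpat3. The set was built around Lpcat1 because of its difference between αSyn 3K and empty vector in these same libraries, so the differences between 3K and EV of the members are described here without a test. Of the 10 genes, 8 passed the filter on low values. Mboat1 did not reach it, and the row of Mboat7 was 0 in every library. RNA was taken from rat primary cortical neuron cultures (embryonic Sprague Dawley cortex) that received AAV9-αSyn 3K (3K) or AAV9 empty vector (EV) on day 5 in vitro. αSyn 3K is human α-synuclein in which glutamates of the repeat region are changed to lysines, expressed from the CAG promoter, which is not restricted to neurons, and EV is the same vector without insert. Cultures were collected 6, 12 and 19 d after AAV9, with 5 libraries per treatment and day and 30 in all. The sample titles carry PBS in both treatments, and the sources do not state whether the 5 replicates were separate cultures, so p-values measure the spread between these libraries only.

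Membrane phospholipids are made from glycerol-3-phosphate and are then remodelled in the Lands cycle, in which a phospholipase removes a fatty acyl chain and a lysophospholipid acyltransferase attaches another from acyl-CoA. The enzyme that does the second step decides which chain and which head group are joined. Lpcat1 and Lpcat3 differ in this way, the first favouring saturated chains and the second polyunsaturated ones. α-Synuclein binds to phospholipid membranes through its repeat region.

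The promoters of Lpcat1, Lpcat4 and Gpat3 are shown because these genes had the largest differences between days in EV or between 3K and EV. Each run is the 250 bases before the transcription start from RefSeq on build GRCr8, written 5′ to 3′ on the strand of the gene. Capitals mark the half-site of the cyclic AMP response element (TGACG on either strand), the AP-1 site (TGAGTCA on either strand) and the GC box (GGGCGG on either strand).
Lpcat1, chr1:31644947-31645196, minus strand: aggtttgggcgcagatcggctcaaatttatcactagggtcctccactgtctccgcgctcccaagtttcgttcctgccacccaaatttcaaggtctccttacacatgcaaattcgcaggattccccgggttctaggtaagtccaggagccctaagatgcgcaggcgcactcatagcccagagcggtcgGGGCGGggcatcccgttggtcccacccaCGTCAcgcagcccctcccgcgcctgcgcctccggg
Lpcat4, chr3:119498878-119499127, plus strand: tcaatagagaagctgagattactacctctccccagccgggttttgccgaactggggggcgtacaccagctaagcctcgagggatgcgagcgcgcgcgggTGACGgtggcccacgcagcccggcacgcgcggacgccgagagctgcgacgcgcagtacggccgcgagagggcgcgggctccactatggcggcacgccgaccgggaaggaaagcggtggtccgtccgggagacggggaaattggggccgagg
Gpat3, chr14:9070866-9071115, minus strand: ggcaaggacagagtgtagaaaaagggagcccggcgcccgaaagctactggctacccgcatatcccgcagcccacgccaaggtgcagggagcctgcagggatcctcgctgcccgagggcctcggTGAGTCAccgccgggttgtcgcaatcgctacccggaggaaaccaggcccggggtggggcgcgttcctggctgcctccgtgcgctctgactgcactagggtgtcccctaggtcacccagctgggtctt
The Lpcat1 run holds a half-site on the reverse strand and a GC box, the Lpcat4 run a half-site and the Gpat3 run an AP-1 site. Such a match describes the letters and not a bound site.

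Each library held between 4747019 and 7035869 reads in genes, and values are normalized counts, that is reads divided by the size factor of the library. A count of 3 reads was worth a normalized count of 2.53 to 3.75. The αSyn 3K vector gave a normalized count of 4203 ± 372, 8650 ± 435 and 24755 ± 2376 in 3K on days 6, 12 and 19, against 135 ± 34.4, 159 ± 16.9 and 211 ± 32.9 in EV (SD, n = 5). Neuron markers were all expressed (10 of 10 tested), and so were those of astrocytes and the oligodendrocyte lineage (10 of 10 each), while of 12 microglial markers listed, 11 were in the expression table and 1 was tested, Lyz2. The summed astrocyte markers were 17234 to 18663 in 3K and 19556 to 20213 in EV on day 12, and 34695 to 40749 in 3K and 37229 to 41921 in EV on day 19. The summed neuron markers on day 19 were 28484 to 30016 in 3K and 30828 to 32439 in EV, without overlap. Of the 10, 3 passed with a fall (Nefl, Slc17a7 and Snap25). Over all 12911 genes tested, 7.86% passed on day 19 in either direction, and 527 genes passed with a fall. Gad1 and Gad2 were higher in 3K without passing (differences 0.15 and 0.12, limma adjusted p = 0.12 and 0.34). The remaining neuron markers were lower without passing. Of the 10 astrocyte markers, Slc1a3 fell on day 12 (0.434% of all genes passed in either direction, and 33 of 12911 with a fall). On day 19, 4 fell (Aldh1l1, Aldoc, Fgfr3 and S100b, against 527 of all 12911 genes with a fall). The largest of these falls was that of Aldoc, with 3428 ± 205 in 3K and 4905 ± 155 in EV on day 19 (difference -0.52, limma adjusted p = 1.8e-07). Gfap went the other way on day 19 but did not pass. It had 6588 ± 783 in 3K and 4555 ± 1756 in EV (difference 0.62, limma adjusted p = 0.063). Gja1 and Sox9 were also higher in 3K on day 19 without passing (0.05 and 0.10), and the remaining markers were lower without passing. Mitochondrial genes took 4.78 ± 0.297% of reads in 3K and 4.21 ± 0.276% in EV on day 19. The part of cell makeup in the values below was not tested, and in bulk RNA fewer cells of a type and less RNA per cell cannot be told apart.

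Lpcat1 (ENSRNOG00000017930), which acylates lysophosphatidylcholine and is best known from lung surfactant, was higher in 3K at each day. On day 6 its normalized counts were 1027, 1006, 1009.8, 928 and 974 in 3K and 653, 690.2, 661, 695 and 650.4 in EV. On day 12 they were 779, 739.7, 741, 783 and 740.5 in 3K and 448, 497, 429, 416 and 514 in EV. On day 19 they were 705, 812, 825, 713 and 779 in 3K and 317, 314, 337, 323 and 345 in EV. Every 3K library lay above every EV library of its day, and the lowest of all 3K libraries (705, day 19) lay above the highest of all EV libraries (695, day 6). The mean was 1.48 times as high in 3K on day 6 (989 ± 39.0 in 3K and 669.9 ± 21.4 in EV, SD, n = 5 each), 1.64 times on day 12 (757 ± 22.3 and 461 ± 42.9) and 2.35 times on day 19 (767 ± 55.3 and 327 ± 13.5). On the log2(normalized count + 1) scale, used for all differences below, 3K minus EV was 0.56, 0.72 and 1.23 on days 6, 12 and 19 (SE 0.05 each). The difference widened by 0.16 between days 6 and 12 and by 0.51 between days 12 and 19 (SE 0.07 each). It was larger on day 19 than on day 6 by 0.66 (SE 0.07). Leaving out any 1 library of the day kept it between 0.55 and 0.58, between 0.68 and 0.76 and between 1.2 and 1.25.

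**Figure D1:**
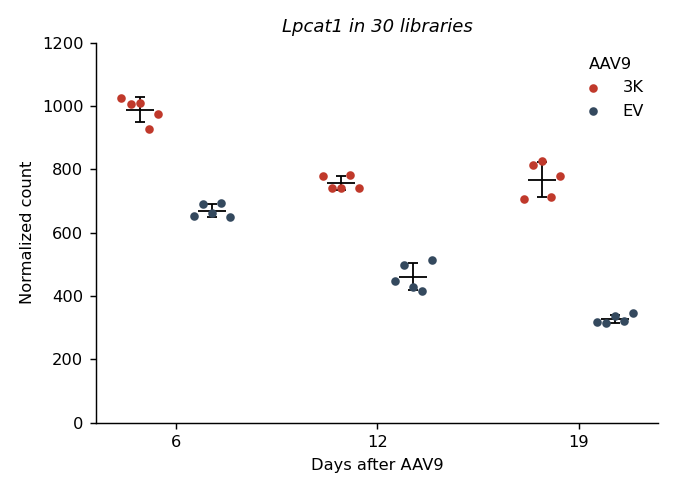
Normalized count of Lpcat1 (y axis) by days after AAV9 (x axis) in 3K (red, left of each pair) and EV (dark, right). Points are libraries, and the bar and whiskers are the mean and SD of 5. The 3K libraries lie above the EV libraries at each day, with means of 989, 757 and 767 in 3K and 669.9, 461 and 327 in EV.

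The widening of this difference went together with a fall of Lpcat1 with age in EV. In EV it was lower on day 12 than on day 6 by 0.54 (limma adjusted p = 4.6e-10) and lower on day 19 than on day 12 by 0.49 (limma adjusted p = 3.7e-09). EV cultures thus held 327 ± 13.5 on day 19 against 669.9 ± 21.4 on day 6, a difference of -1.03 (SE 0.05, limma adjusted p = 1.5e-17), with no overlap between any of the days. In 3K the difference between day 12 and day 6 was -0.39, with all libraries of day 12 below those of day 6, and that between day 19 and day 12 was 0.02, with overlapping libraries. Ordered by mean, Lpcat1 ran from 3K day 6 through 3K day 19, 3K day 12, EV day 6 and EV day 12 to EV day 19, and of these neighbours 3K day 19 and 3K day 12 alone overlapped. Over the same days in EV the summed astrocyte markers averaged 12596, 19974 and 39694 and the summed neuron markers 27765, 28693 and 31795. The neuron sum joined opposite changes between day 6 and day 19 in EV. Of its 10 markers, 6 passed with a rise (32.9% of all genes) and 2 with a fall (32.2%), Map2 and Tubb3. Tubb3 averaged 11818 ± 632 on day 6 and 3807 ± 175 on day 19 (limma adjusted p = 3.2e-25). Slc17a7, which rose, averaged 2784 ± 55.5 and 7775 ± 226 (limma adjusted p = 2.9e-29). The part of cell makeup in the fall of Lpcat1 was not tested.

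Gpat3 catalyses the first acylation of glycerol-3-phosphate, upstream of the remodelling enzymes. Its normalized counts on day 19 were 71.9, 124, 83.1, 69.8 and 108 in 3K and 47.2, 47.3, 49.8, 50.9 and 48.6 in EV. All 3K libraries lay above the EV libraries, and they were spread more widely, with 91.3 ± 23.8 in 3K and 48.8 ± 1.62 in EV. 3K minus EV was 0.86 on day 19 (SE 0.20), and 0.26 on day 6 and 0.03 on day 12, where the libraries overlapped. In EV, Gpat3 rose by 1.42 between day 12 and day 19 (limma adjusted p = 5.5e-07) and by 1.77 between day 6 and day 19 (limma adjusted p = 2.4e-09). The difference between day 12 and day 6 in EV was 0.36 and did not pass (limma adjusted p = 0.15), but did so without EV day 6 replicate 1 (limma adjusted p = 0.046).

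Lpcat4, an acyltransferase of lysophosphatidylcholine and lysophosphatidylethanolamine, ran opposite to Lpcat1 with age. Its normalized count in EV averaged 159.9 ± 10.3, 225 ± 9.25 and 372 ± 31.6 on days 6, 12 and 19 (SD, n = 5 each). It rose between day 6 and day 12 by 0.49 (limma adjusted p = 4.3e-06), between day 12 and day 19 by 0.72 (limma adjusted p = 3.9e-09) and over both steps by 1.21 (limma adjusted p = 5.4e-15), with the libraries of each later day above those of the earlier. On day 19 the counts were 273, 322, 289.6, 342 and 252 in 3K and 318, 398, 379, 390.1 and 373 in EV. Most 3K libraries were lower, but the highest in 3K exceeded the lowest in EV. 3K minus EV was -0.09, -0.16 and -0.33 on days 6, 12 and 19 (SE 0.08 each).

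Lpcat3, which puts polyunsaturated chains into phosphatidylcholine and is a target of the liver X receptors, was highest on day 12 in both treatments. In EV it averaged 353 ± 23.1, 433 ± 13.9 and 358 ± 20.6 on days 6, 12 and 19. The rise between day 6 and day 12 was 0.30 (limma adjusted p = 0.00012) and the fall between day 12 and day 19 was -0.28 (limma adjusted p = 0.00026), so that day 19 against day 6 gave 0.02 (limma adjusted p = 0.78). On day 19 the counts were 343, 269, 321, 328 and 316 in 3K and 358, 367, 385, 352 and 329 in EV. These overlapped by single libraries, with 3K minus EV at -0.04, 0.03 and -0.18 on days 6, 12 and 19 (SE 0.06 each).

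Lpcat2, which also makes platelet-activating factor in inflammatory cells, had few reads. In 3K it averaged 34.3 ± 9.79, 33.1 ± 8.22 and 46.5 ± 9.01 on days 6, 12 and 19, and in EV 28.7 ± 10.6, 36.7 ± 7.36 and 58.5 ± 11.9. The treatments overlapped at each day, with differences of 0.27, -0.16 and -0.32 (SE 0.23 each). In EV it rose between day 6 and day 19 by 1.05 (limma adjusted p = 0.0002). The change between day 12 and day 19 was 0.65 (limma adjusted p = 0.022), and it no longer passed without EV day 12 replicate 1 (adjusted p = 0.063) or without EV day 19 replicate 1 (adjusted p = 0.058). The summed microglial markers in EV ranged from 1.08 to 6.10 on day 6, from 30.4 to 45.9 on day 12 and from 112 to 159 on day 19, when they were mostly Lyz2. The defining microglial marker C1qa was at 0 in all libraries, and P2ry12 reached at most 1.12 and Csf1r at most 1.03. Cd68 reached 16.7, with means of 12.06 in 3K and 4.635 in EV on day 19, and was below the filter for a test. Apart from Lyz2 and Cd68, no microglial marker in the expression table exceeded 3.36 (Tmem119).

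**Figure D2:**
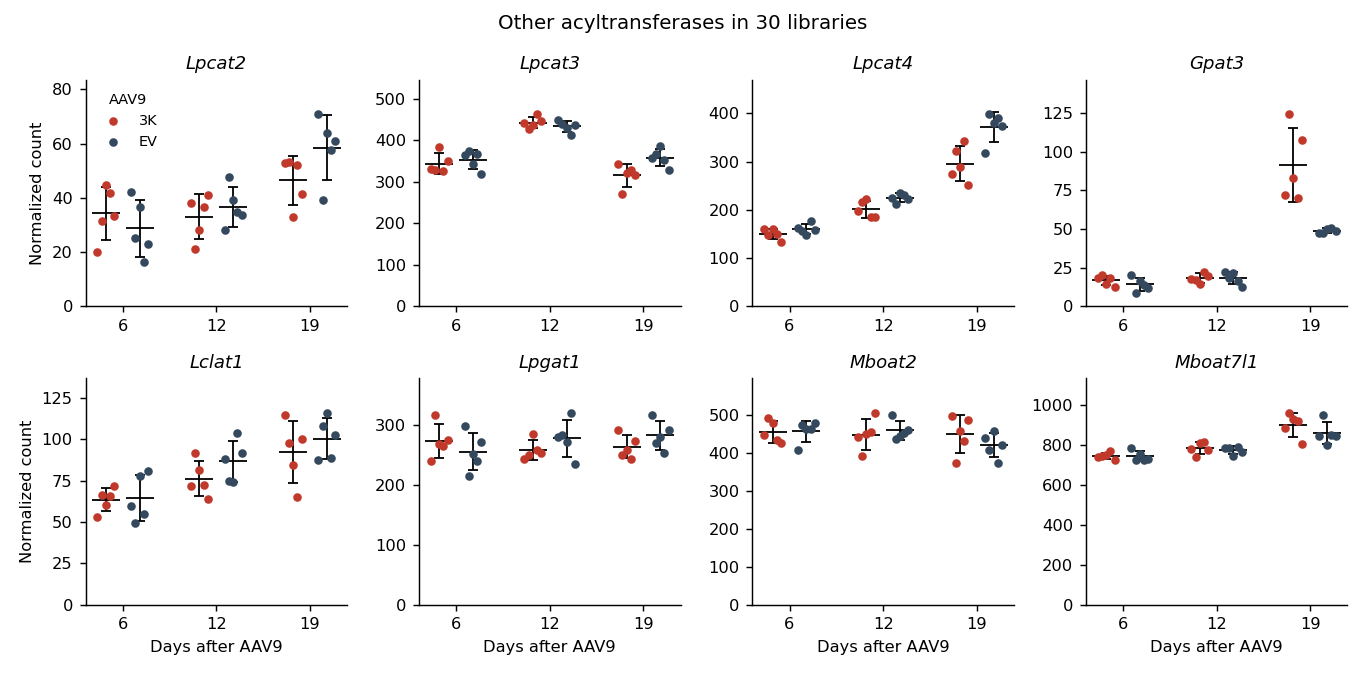
Normalized count (y axes, each from 0) by days after AAV9 (x axes) of the other 7 members that passed the filter on low values and of the row Mboat7l1, in 3K (red, left) and EV (dark, right). Points are libraries, and the bar and whiskers are the mean and SD of 5. Gpat3 on day 19 is the only panel and day in which all 3K libraries (lowest 69.8) lie above all EV libraries (highest 50.9).

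The genes named Mboat, for membrane-bound O-acyltransferase, had small differences. Mboat2, an acyltransferase of lysophosphatidylethanolamine and lysophosphatidylcholine, averaged 456 ± 28.9, 448 ± 40.6 and 449 ± 50.4 in 3K on days 6, 12 and 19 and 457 ± 27.9, 459 ± 24.4 and 420.4 ± 31.6 in EV. 3K minus EV stayed between -0.04 and 0.09 (SE 0.07 each), and no EV contrast passed (limma adjusted p = 0.94 for day 12 against day 6, 0.14 for day 19 against day 12 and 0.13 for day 19 against day 6). With all libraries scaled to equal totals, the change between day 6 and day 19 in EV was -0.17 and passed (adjusted p = 0.034). Mboat1, which acylates lysophosphatidylethanolamine and lysophosphatidylserine, had normalized counts of 0 to 7.58 over the 30 libraries, near the worth of 3 reads, and group means of 2.12 to 5.42.

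Mboat7 puts arachidonic acid into phosphatidylinositol. Its own row held 0 reads in all 30 libraries, while a row of the symbol Mboat7l1 (ENSRNOG00000052600), which RefSeq lists as a synonym of Mboat7, held reads in all. This row was added after its values were seen and is not among the 10. It averaged 745 ± 16.4, 786 ± 29.7 and 901 ± 58.6 in 3K on days 6, 12 and 19 and 744 ± 26, 774 ± 19.5 and 861 ± 55.9 in EV. The treatments overlapped at each day, with differences of 0.00, 0.02 and 0.07 (SE 0.04 each). In EV it rose by 0.15 between day 12 and day 19 (limma adjusted p = 0.0059) and by 0.21 between day 6 and day 19 (limma adjusted p = 0.00013). How reads were shared between both rows was not tested.

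Lclat1, named for acylating lysocardiolipin, and Lpgat1, an acyltransferase of lysophosphatidylglycerol, completed the set. Lclat1 averaged 63.4 ± 6.92, 76.3 ± 10.6 and 92.3 ± 18.7 in 3K on days 6, 12 and 19 and 64.6 ± 13.8, 86.6 ± 12.5 and 100.5 ± 12.4 in EV. In EV it rose between day 6 and day 19 by 0.65 (limma adjusted p = 0.00021), with the libraries of day 19 above those of day 6. The change between day 6 and day 12 was 0.43 (limma adjusted p = 0.015), and it was lost without EV day 6 replicate 2 (adjusted p = 0.059) or EV day 12 replicate 4 (adjusted p = 0.052). Lpgat1 averaged 272 ± 27.9, 257 ± 16.2 and 263 ± 19.3 in 3K and 255 ± 31, 277 ± 30.6 and 282 ± 24.1 in EV, and no EV contrast passed (limma adjusted p from 0.12 to 0.83). Without EV day 6 replicate 1, Lpgat1 passed between day 6 and day 19 (0.21, adjusted p = 0.034). 3K minus EV was -0.01, -0.18 and -0.14 for Lclat1 (SE 0.14 each) and 0.10, -0.10 and -0.10 for Lpgat1 (SE 0.08 each), with overlap at each day.

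**Figure D3:**
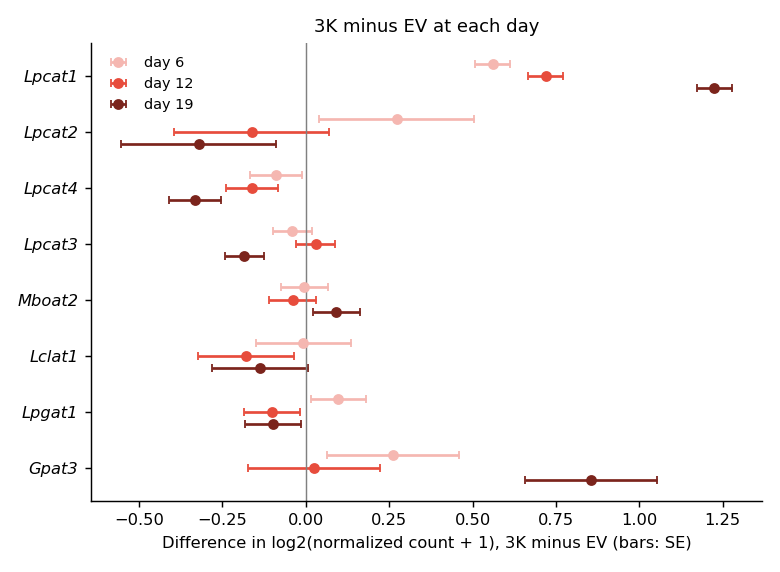
Difference between 3K and EV in log2(normalized count + 1) (x axis) for the 8 members that passed the filter on low values (y axis), from light to dark on days 6, 12 and 19, with bars of 1 SE from limma. Lpcat1 lies at 0.56, 0.72 and 1.23, Gpat3 reaches 0.86 on day 19, and Lpcat4 lies at -0.33 on day 19.

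Over the 8 members, Lpcat1 alone had no overlap between 3K and EV on day 6 (1.29% of all 12911 genes tested) and on day 12 (2.63%), and Lpcat1 and Gpat3 had none on day 19 (6.65%). Since the set was chosen from this contrast, nothing is read from these counts. The median difference over the 8 was 0.05, -0.07 and -0.12 on days 6, 12 and 19, against -0.00, 0.00 and -0.00 over all genes.

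With age in EV, 4 of 8 members passed between day 6 and day 12 (44.5% of all genes), with 3 higher (23.3%) and 1 lower (21.2%). Between day 12 and day 19, 5 of 8 passed (45.4% of all genes), with 3 higher (23.6%) and 2 lower (21.7%). Between day 6 and day 19, 5 of 8 passed (65.1% of all genes), with 4 higher (32.9%) and 1 lower (32.2%). Beside these backgrounds, the counts of 8 genes showed nothing particular to the set. Lpcat1 passed the threshold with a fall at both steps and Lpcat4 with a rise at both. The changes of Lpcat2, Lclat1, Lpgat1 and Gpat3 were also positive at both steps but passed at 1 of them or at none. The median change of the 8 between day 6 and day 19 was 0.40, against 0.00 over all genes.

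**Figure D4:**
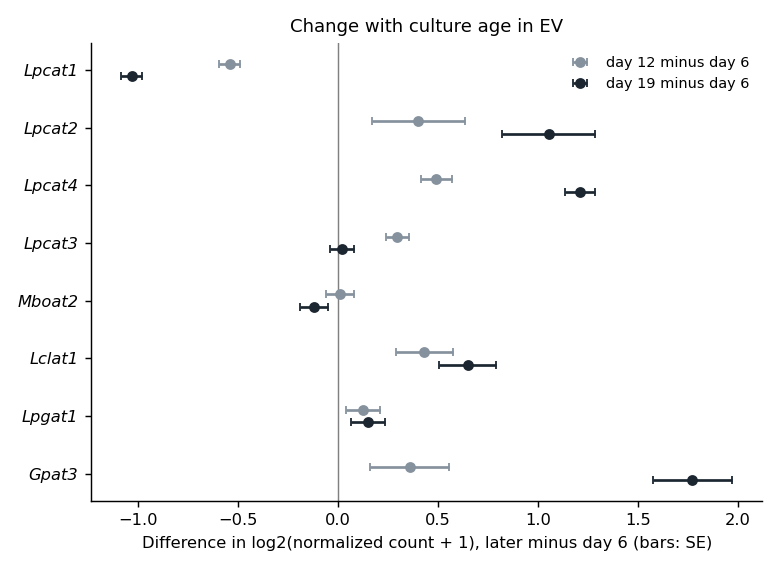
Change with age in EV in log2(normalized count + 1) (x axis) for the 8 members (y axis), as day 12 minus day 6 (grey) and day 19 minus day 6 (black), with bars of 1 SE from limma. Lpcat1 lies at -0.54 and -1.03, while Gpat3, Lpcat4, Lpcat2 and Lclat1 lie at 1.77, 1.21, 1.05 and 0.65 on day 19.

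All 10 members were matched to a RefSeq promoter. The GC content of these runs was 57.6 to 74.8%, against a median of 52% over 27457 promoters of the same length. The half-site TGACG stood in 2 of 10 members (18.96% of all promoters), Lpcat1 and Lpcat4. A relation between motifs and expression was not tested. The AP-1 site TGAGTCA stood in 1 of 10, Gpat3 (3.98% of all promoters), and the GC box GGGCGG in 6 of 10 (32.4%). The CCAAT box (CCAAT) stood in 3 of 10 (34.3% of all promoters), and neither the E box (CACGTG, 5.79%) nor the sterol element SRE-1 (0.0838%) in any. All motifs were searched on both strands, and none is contained in another.

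Genes were then ranked by the Pearson correlation of their values with those of Lpcat1 over the 30 libraries, after removing the mean of each day. This is a description of 12910 genes, and the libraries share treatment, so that genes that differ between 3K and EV rank at either end. The most alike were Rgs4, a regulator of G-protein signalling (r = 0.96), Rnf145, an E3 ligase of the endoplasmic reticulum (r = 0.96), Tmem50b (r = 0.95), Snn (r = 0.95) and Fam102b (r = 0.94). Their own course with age was not the same. Fam102b averaged 94.0 ± 9.74 in 3K and 40.7 ± 9.15 in EV on day 19, and in EV it had been 98.1 ± 8.82 on day 6, a course like that of Lpcat1. Rgs4 averaged 2645 ± 144 in 3K and 1640.4 ± 75.2 in EV on day 19, and 1779 ± 77.0 in 3K and 1503 ± 23.3 in EV on day 6. The most opposite were Serpinh1, the collagen chaperone (r = -0.92), Pde2a, a cyclic nucleotide phosphodiesterase (r = -0.90), and Acsbg1, an acyl-CoA synthetase that supplies the substrate of acyltransferases (r = -0.90). Acsbg1 averaged 3018 ± 143 in 3K and 3666 ± 102 in EV on day 19. Among the members, Gpat3 was the most alike (r = 0.61, rank 257) and Lpcat4 the most opposite (r = -0.70).

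Most other genes of phospholipid metabolism did not pass between 3K and EV. The lists held 102 further gene symbols, of which 80 were tested. They formed 3 groups (other acyltransferases, phospholipases with lysophospholipases, and enzymes of head groups and phosphatidate). The symbols Tafazzin, Plaat3 and Ept1 had no row in the expression table. The lists leave out the members and were drawn up with earlier results of these data known. Their counts are therefore given beside the share of all genes as a description only. On day 6, 1 of 80 passed (0.225% of all genes), Lcat, the enzyme that esterifies cholesterol with a chain from phosphatidylcholine. Its normalized count was 2.45 ± 1.63 in 3K and 9.92 ± 3.48 in EV, few reads in both, with a difference of -1.71 (SE 0.30, limma adjusted p = 0.0029). It no longer passed when the libraries of day 6 were fitted alone (adjusted p = 0.26). On day 19 the difference of Lcat was 0.09. It was the single gene of the 80 whose 3K minus EV value changed between days 6 and 19 (1.51% of all genes did), with a change of 1.80 (SE 0.42, limma adjusted p = 0.020). No gene of the lists passed for this change with DESeq2, a pseudocount of 5, a filter at 50, only the groups compared or without EV day 19 replicate 2. On day 12 no gene of the lists passed with limma or edgeR and 1 did with DESeq2 (0.434% of all genes passed with limma). An unadjusted limma p under 0.05 was found for 10 of the 80, against 1063 of all 12911 genes tested.

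On day 19, 3 of the 80 passed (3.75%, against 7.86% of all genes). Etnk2, an ethanolamine kinase, rose by 0.45 (58.4 ± 4.74 in 3K and 43.1 ± 9.68 in EV, limma adjusted p = 0.034). Gde1, a glycerophosphodiesterase, fell by 0.18 (1219 ± 73.1 in 3K and 1383 ± 113 in EV, limma adjusted p = 0.018). Abhd3, a phospholipase of medium-chain phosphatidylcholine, fell by 0.22 (633 ± 44.0 in 3K and 737 ± 44.2 in EV, limma adjusted p = 0.0497). This call was lost with the replicate number as a block (limma adjusted p = 0.062) and in 7 of the 10 fits that left out 1 library of the day. In the same 10 fits the call of Etnk2 was lost in 6 and that of Gde1 in 4. The libraries of 3K and EV overlapped for each of the 3 genes. The count rested on single libraries, being 0 without EV day 19 replicate 2, 1 without EV day 19 replicate 3, 3K day 19 replicate 1 or 3K day 19 replicate 4, and 5 without EV day 19 replicate 5 or 3K day 19 replicate 5. Etnk2 no longer passed with edgeR (adjusted p = 0.058) or DESeq2 (adjusted p = 0.069). By list, 0 of 15 other acyltransferases, 2 of 33 phospholipases and 1 of 32 head group enzymes passed on day 19, with medians of 0.00, -0.09 and -0.05, against -0.00 over all genes. Enpp6, a choline-specific phosphodiesterase, had the largest difference of the lists on day 19 (1.06) but did not pass (SE 0.56, limma adjusted p = 0.30), and it was named after its values were seen.

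**Figure D5:**
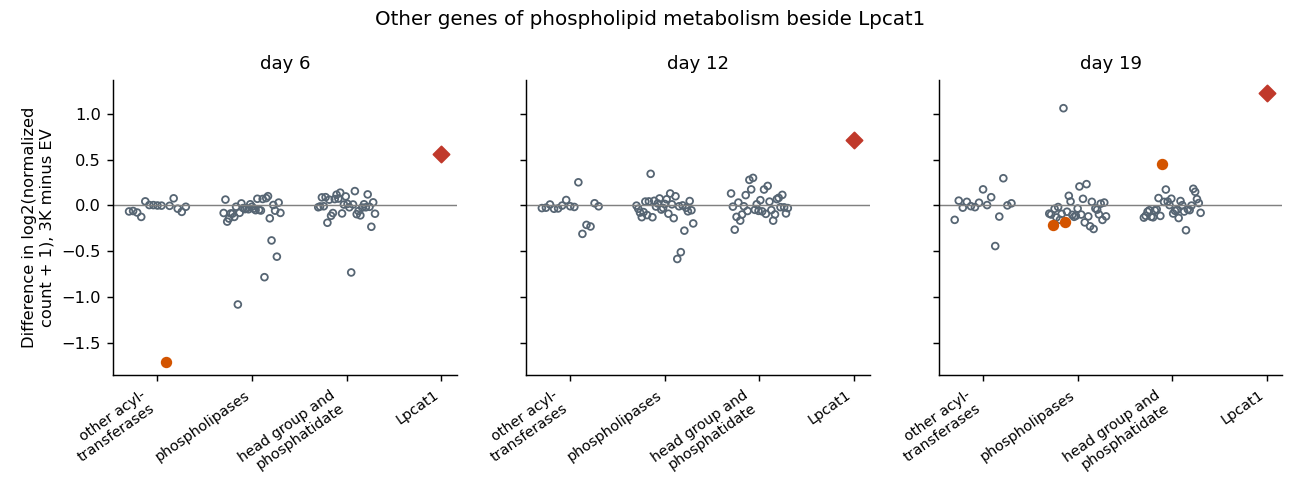
Difference between 3K and EV in log2(normalized count + 1) (y axis) on days 6, 12 and 19 (panels) for the 80 tested genes of the 3 lists (x axis, 1 point per gene) and for Lpcat1 (red diamond). Filled orange points passed the limma threshold: 1 on day 6, 0 on day 12 and 3 on day 19. Lpcat1, at 0.56, 0.72 and 1.23, lies above all points of its day. The set was built around Lpcat1 because of this difference, so nothing is read from its place.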

How the data were processed

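RNA of rat cortical neuron cultures was sequenced as full-length cDNA (SMART-Seq v4, Nextera XT), and per the submitters' processing notes STAR 2.5.2b, RSEM 1.2.31, FastQC and DESeq2 were used with build Rnor_6.0. The signal values were deposited by the authors as RSEM counts that DESeq2 had scaled by one size factor for each library. All values (100%) were whole reads (tolerance 0.01 of a read), and these were recovered for the count alternatives. No strand setting is given in the sources used here, so reads of overlapping genes cannot be told apart, and counts of near copies are uncertain.

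Genes entered the test when 5 or more libraries had a normalized count of 10 or more (12911 of 20634 with any read). limma 3.58.1 (R 4.3.3) was fitted to log2(normalized count + 1) with a mean for each of 6 groups and a trend, two-sided, adjusted by the Benjamini-Hochberg method over all genes tested, with a threshold of 0.05. Adding 1 understates the change of low genes. Members and lists were chosen with earlier results of these data known, so members were tested only between days in EV. List genes were tested between 3K and EV as well, and that choice limits what their counts can show. Named were all members, list genes that passed on day 6 or 12, the 4 with the smallest adjusted p among those of each list that passed on day 19, and the 5 genes most like and 3 most opposite to Lpcat1. Of the 102 list symbols, 80 were tested. Alternatives were edgeR 4.0.16 and DESeq2 1.42.0 on recovered reads, pseudocounts of 0.5 and 5, no filter or a filter at 50, other scalings, fits of only the groups compared, a replicate block and leaving out each library. The fit was also run on simulated counts for 3K against EV on day 19 alone, and no result given here rests on that run. Worth of reads covers counting error only, since amplified reads are not independent molecules. With 4747019 to 7035869 reads over genes per library, a small change in a gene of low count goes undetected.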

Additional observations from a re-analysis of the deposited data

Results flagged for a closer look

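Of 60 groups of 5 libraries of the members and of Mboat7l1, 2 held a library far from the other 4, where chance gives about 1 in 20. Mboat1 in EV on day 6 had a normalized count of 1.74 in replicate 2, against 5.91 to 6.71 in the others. Mboat2 in EV on day 6 had 408.7 in replicate 1, against 462 to 478 in the others.

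The difference between 3K and EV of Lcat was not the same on days 6 and 19. It was -1.71 on day 6 and 0.09 on day 19, a change of 1.80 (SE 0.42, limma adjusted p = 0.020), with normalized counts of 9.86 ± 2.36 in 3K and 9.43 ± 2.93 in EV on day 19 and of 2.45 ± 1.63 in 3K and 9.92 ± 3.48 in EV on day 6. The count of list genes with such a change was 0 with a pseudocount of 5, a filter at 50, only the groups compared or DESeq2, and without EV day 19 replicate 2.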

How the results depend on the processing

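The differences of Lpcat1 kept their direction and size under all alternatives run. Of the list genes, 1 passed on day 6, 0 with a filter at 50 or with only the groups compared. None passed on day 12, and 1 did with a filter at 50, equal totals, only the groups compared or DESeq2, and 0 to 1 leaving out a library (1 without EV day 12 replicate 1). On day 19, 3 passed, 1 with only the groups compared, and 0 to 5 leaving out a library. For the change of the difference between days 6 and 19, 1 passed, 0 with a pseudocount of 5, a filter at 50, only the groups compared or DESeq2, and 0 to 2 leaving out a library (0 without EV day 19 replicate 2, 2 without 3K day 6 replicate 3 or 3K day 19 replicate 4). Members that passed in EV numbered 3 to 5 (4 with all libraries), 4 to 5 (5) and 5 to 6 (5) for day 12 against day 6, day 19 against day 12 and day 19 against day 6. Over all genes, 29 passed on day 6 (14 with only the groups compared, 53 with DESeq2, 16 without 3K day 6 replicate 1, 17 without EV day 6 replicate 1 or 3K day 6 replicate 5) and 56 on day 12 (106 with only the groups compared, 95 with DESeq2, 37 without EV day 12 replicate 2, 36 without 3K day 12 replicate 2). For the change between days 6 and 19, 195 passed, and 104 with only the groups compared. On day 19, 488 were higher and 527 lower, against 631 and 376 with equal totals, and for the change between days 6 and 19, 95 and 100, against 123 and 72. The replicate block left the list counts at 1, 0 and 3 on days 6, 12 and 19, and ended the call of Abhd3 (adjusted p = 0.062). Same-numbered 3K and EV libraries had correlations of -0.12 to 0.19 in 15 pairs (3 over 0.1, all on day 19, where the other 2 were not). Among the 5 libraries of the other treatment, 6 of the 15 correlated best with their own number. These were 3 of 5 on day 6, 0 of 5 on day 12 and 3 of 5 on day 19. This does not settle whether the numbers mark pairs. The main fit did not take them as pairs, and the replicate block did. The cause of the differences between settings was not tested. Genes with few reads, such as Lpcat2, Mboat1 and Lcat, limit what this depth can show.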

Other observations

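In EV, the other genes of phospholipid metabolism changed widely with age. Between day 6 and day 19, 7 of 15 other acyltransferases rose and 4 fell, 21 of 33 phospholipases rose and 9 fell, and 15 of 32 head group enzymes rose and 10 fell (limma, adjusted over all genes), where 32.9% of all genes rose and 32.2% fell. Among genes named above, Abhd3 rose by 1.94, with 737 ± 44.2 on day 19 and 192 ± 22.6 on day 6 (SD, n = 5 each, limma adjusted p = 1.7e-21). Gde1 rose by 0.53 (limma adjusted p = 4e-11), and Etnk2 fell by 1.29, with 43.1 ± 9.68 on day 19 and 105 ± 13.0 on day 6 (limma adjusted p = 6.3e-10).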
